A study of Mus musculus with 79 samples.

Results

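Ketone body use in muscle was examined through Bdh1, Oxct1, Acat1 and Slc16a1, 4 of the 22335 genes named on the array, each with a single probeset. The rows were found by gene symbol. Quadriceps transcripts were measured with 79 Affymetrix Mouse Gene 1.0 ST arrays, each holding RNA pooled from about 5 male mice of a single strain on a single diet. The mice were BXD strains, an inbred panel bred from C57BL/6J and DBA/2J, together with both parental strains. All were fasted overnight and sacrificed at 29 weeks of age. The control group received a chow diet (CD, Harlan 2018, 42 arrays), and the other received a high fat diet (HFD, Harlan 06414, 37 arrays) from 8 weeks of age. Both diets were represented in 37 strains, and 5 strains had a CD array alone. The array is the replicate, and how far animals within a strain differ was not measured.

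Ketone bodies are small acids that the liver makes from fatty acids during fasting and releases into the blood. Muscle takes them up through monocarboxylate carriers and burns them in its mitochondria. There, 3-hydroxybutyrate is oxidised to acetoacetate, acetoacetate receives coenzyme A from succinyl-CoA, and the product is split into acetyl-CoA, which enters the citric acid cycle. BDH1 (3-hydroxybutyrate dehydrogenase) performs the oxidation, OXCT1 (succinyl-CoA:3-ketoacid CoA transferase) performs the coenzyme A transfer and is limiting for ketone body use, and ACAT1 (mitochondrial acetoacetyl-CoA thiolase) performs the split. SLC16A1, also called MCT1, carries lactate, pyruvate and ketone bodies across the cell membrane, is abundant in oxidative fibres and needs basigin to reach the membrane.

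The sequences around the start sites of Bdh1 and Slc16a1 are shown because these genes varied together across strains, and that of Oxct1 because it varied least with the others. Each window runs from 250 bases before to 50 bases after a start in the RefSeq annotation of GRCm38.p6. The table held 3 of the 4 genes, with separate windows for the alternative starts of Bdh1, and Acat1 is named only. The Bdh1 windows are chr16:31422047-31422346 and chr16:31428503-31428802, the Slc16a1 window is chr3:104638414-104638713, and the Oxct1 window is chr15:4026178-4026477, all on the plus strand. Capitals mark matches, on either strand, to AGGTCA (a nuclear receptor half-site), CACGTG (an E-box) or GGGCGG (a GC box), and no matches overlapped.

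Bdh1, upstream start: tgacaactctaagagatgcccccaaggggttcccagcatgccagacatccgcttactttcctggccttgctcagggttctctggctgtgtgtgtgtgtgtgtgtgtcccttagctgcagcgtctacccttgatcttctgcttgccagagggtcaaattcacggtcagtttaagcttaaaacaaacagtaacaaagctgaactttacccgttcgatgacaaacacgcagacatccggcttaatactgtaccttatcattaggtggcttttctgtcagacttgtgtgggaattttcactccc
Bdh1, downstream start: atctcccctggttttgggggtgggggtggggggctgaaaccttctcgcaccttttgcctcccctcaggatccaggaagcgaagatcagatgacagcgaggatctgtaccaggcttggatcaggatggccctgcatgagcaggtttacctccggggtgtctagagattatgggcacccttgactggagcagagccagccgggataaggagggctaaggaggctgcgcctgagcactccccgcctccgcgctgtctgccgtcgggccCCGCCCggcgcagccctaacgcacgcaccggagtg
Slc16a1: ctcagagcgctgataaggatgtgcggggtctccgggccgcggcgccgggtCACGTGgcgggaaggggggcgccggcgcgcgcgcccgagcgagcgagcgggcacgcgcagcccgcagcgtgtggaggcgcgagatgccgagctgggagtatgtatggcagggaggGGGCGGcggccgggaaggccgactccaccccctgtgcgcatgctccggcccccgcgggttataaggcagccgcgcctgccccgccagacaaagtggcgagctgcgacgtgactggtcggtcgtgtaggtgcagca
Oxct1: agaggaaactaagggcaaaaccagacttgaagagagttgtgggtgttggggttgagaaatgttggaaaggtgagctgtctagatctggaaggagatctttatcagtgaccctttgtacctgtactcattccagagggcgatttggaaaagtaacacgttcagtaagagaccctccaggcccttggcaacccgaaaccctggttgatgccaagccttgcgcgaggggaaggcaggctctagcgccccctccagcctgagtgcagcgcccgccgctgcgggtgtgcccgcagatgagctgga

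Slc16a1 held 1 match to CACGTG and 1 to GGGCGG, and the downstream window of Bdh1 held 1 match to GGGCGG. The upstream window of Bdh1 and the Oxct1 window held none of the 3 motifs. Among the 32851 windows of this length in the table, 16.3% held AGGTCA, 7.15% held CACGTG and 35.7% held GGGCGG. The G and C content was 48.3% and 63.7% in the Bdh1 windows, 73.7% in that of Slc16a1 and 55.3% in that of Oxct1, beside a median of 52.7% over all windows. The matches are letters in a window and were not tested for binding.

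Values were deposited as a score scaled to a common mean (8 units) and SD (2 units) on each array. The score behaves as a logarithm, but its base was not stated, so folds that take 1 unit as a doubling are called nominal, and scores of different probesets are not compared. The sample titles name 2 batches (18 CD and 17 HFD arrays, then 24 CD and 20 HFD arrays). The limma batch term called 0 of 35556 probesets, with 0 at an unadjusted p below 0.05, and its smallest p was 0.266. Random spread alone would leave some p-values below 0.05, so this does not show that the batches were alike before processing. Whether batch means were matched before deposition was not stated. Strain BXD63 stood apart, because its diet profile over all probesets correlated at -0.279 with the mean profile of the other 36 strains, against 0.139 to 0.476 in every other strain. Whether its CD and HFD arrays carry each other's diet label could not be settled here. The mean of 11 adipocyte marker genes, higher on HFD over the strains as a whole, was also higher on HFD in BXD63 as labelled, by 0.669 units in a range of -0.462 to 1.06 units over the 37 strains. Such an exchange would turn the sign of its own differences, which as labelled were 0.413 units for Bdh1, -0.208 for Oxct1, 0.106 for Acat1 and 0.214 for Slc16a1. The diet differences and the correlations were therefore also computed without it. Of the 36 strains left, Bdh1 was higher on HFD in 18, Oxct1 lower in 29, Acat1 higher in 30 and Slc16a1 higher in 22. Muscle transcripts were bright, and the mean score of 9 skeletal muscle genes lay between 14.24 and 14.69 on every array.

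Among the ketone body genes, Oxct1 was lower and Acat1 higher in HFD, while Bdh1 and Slc16a1 were not called. With limma and an adjusted p below 0.05, 2 of 4 genes were called, 1 in each direction. This background was dense: 38.1% of all probesets were called, 18.9% higher and 19.3% lower in HFD. A share of 2 in 4 is near that background. With strain as a replicate block 3 of 4 were called, as Slc16a1 passed too, beside 14441 of all 35556 probesets. With 4 genes, neither share sets them apart. In bulk muscle, fewer cells of a type and less RNA per cell cannot be told apart.

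Bdh1, the dehydrogenase, scored from 8.775 to 10.495 with a median of 9.6255 in CD, and from 8.608 to 10.487 with a median of 9.638 in HFD. The ranges overlapped almost fully, and 19 of 37 HFD arrays lay above the CD median. The group means were 9.56 ± 0.48 (SD, n = 42) and 9.57 ± 0.45 (SD, n = 37). The difference, HFD minus CD, was 0.0077 units (SE 0.104, 95% interval -0.200 to 0.215, limma adjusted p 0.962). Bdh1 was higher in HFD in 19 of 37 strains, and its sign turned in several alternatives. The interval is wide, because Bdh1 varied more between the arrays of a diet than most transcripts. Its SD was larger than that of 95.4% of probesets in CD and 93.6% in HFD. With 1 array per strain and diet, strain and array spread cannot be told apart.

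Oxct1, the transferase, scored from 10.955 to 11.695 with a median of 11.4405 in CD, and from 10.935 to 11.601 with a median of 11.245 in HFD. The groups overlapped, but 34 of 37 HFD arrays lay below the CD median, and 1 lay below the lowest CD array. The group means were 11.41 ± 0.16 (SD, n = 42) and 11.24 ± 0.15 (SD, n = 37). Oxct1 fell by 0.175 units in HFD (SE 0.0358, limma adjusted p 4.87e-05), nominally to 0.886 of its CD level. It was lower in 30 of 37 strains. The difference was -0.198 units in batch 1 (adjusted p 0.0108), -0.157 units in batch 2 (adjusted p 0.0148) and -0.174 units without BXD63, and over all alternative fits the limma adjusted p lay between 1.89e-05 and 0.0148.

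Acat1, the thiolase, scored from 12.213 to 12.865 with a median of 12.472 in CD, and from 12.354 to 12.953 with a median of 12.652 in HFD. Again the groups overlapped, with 33 of 37 HFD arrays above the CD median and 3 above the highest CD array. The group means were 12.46 ± 0.15 (SD, n = 42) and 12.64 ± 0.14 (SD, n = 37). Acat1 rose by 0.178 units (SE 0.0329, limma adjusted p 8.13e-06), a nominal 1.13-fold, and 31 of 37 strains shared this direction. The rise was 0.195 units in batch 1 (adjusted p 0.00166), 0.165 units in batch 2 (adjusted p 0.0111) and 0.180 units without BXD63, and over all alternative fits the adjusted p lay between 3.79e-06 and 0.0111. ACAT1 also acts in isoleucine breakdown, so its transcript is not particular to ketone bodies.

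Slc16a1, the carrier, scored from 9.686 to 10.678 with a median of 10.1455 in CD, and from 9.868 to 10.789 with a median of 10.269 in HFD. The groups overlapped, and 25 of 37 HFD arrays lay above the CD median. The group means were 10.15 ± 0.25 (SD, n = 42) and 10.26 ± 0.20 (SD, n = 37). The difference of 0.109 units (SE 0.0507, 95% interval 0.0079 to 0.210) did not pass after adjustment (limma p 0.0349, adjusted p 0.0813), and 23 of 37 strains had a higher HFD score. With strain as a replicate block it was 0.106 units and passed (adjusted p 0.0479), as it did with arrays centred on their own median (0.126 units, adjusted p 0.0480), and over all alternative fits the limma adjusted p lay between 0.0479 and 0.481. Within batches it was 0.144 units (adjusted p 0.123) and 0.081 units (adjusted p 0.481), and 0.106 units without BXD63.

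**Figure D1:**
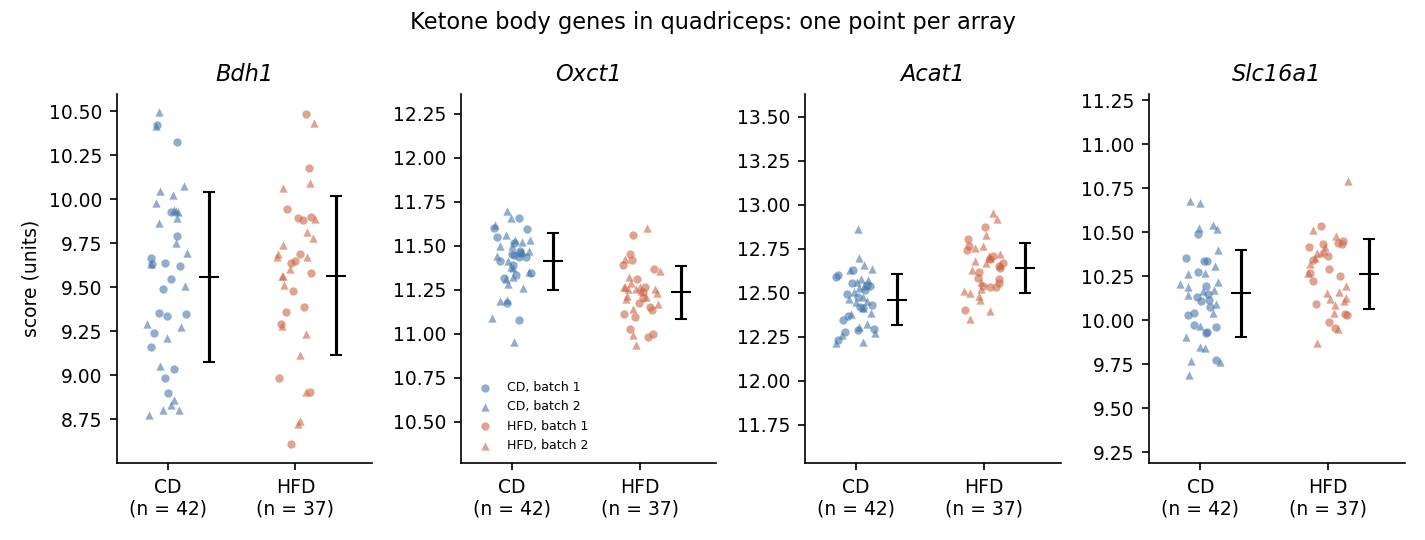
Scores (units) of the 4 genes on each array by diet, with circles for batch 1 and triangles for batch 2; the black bars are the mean and SD of 42 CD and 37 HFD arrays, and each panel spans the same number of units. Oxct1 sits lower and Acat1 higher in HFD, while Bdh1 is spread over the widest range on both diets.

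Marker genes of other cell types were also called between diets, in lists whose counts stand beside the 38.1% of all probesets called. Of 11 adipocyte genes, 7 were called higher and 1 lower in HFD (limma), and the list mean lay between 9.33 and 10.66 in CD and between 9.43 and 10.96 in HFD. Of 6 macrophage genes 4 were called higher (8.34 to 9.12 in CD, 8.42 to 9.46 in HFD), as were 4 of 8 endothelial genes (9.48 to 10.22 and 9.81 to 10.37). Schwann cell genes were called 2 higher and 2 lower among 6 (8.88 to 9.38 and 8.80 to 9.43), and red blood cell genes 1 higher and 1 lower among 7 (7.87 to 8.67 and 7.66 to 8.93). Of the slow fibre genes 2 of 10 were called higher and 0 lower (8.86 to 11.03 and 8.55 to 10.95), although the median difference over the list was -0.12 units, and of the fast glycolytic genes 1 of 9 was called lower (14.35 to 14.66 and 14.26 to 14.65). The share called was above the 38.1% in the adipocyte, macrophage, Schwann cell and endothelial lists and below it in the red blood cell, slow fibre and fast glycolytic lists. The part of these cells in the diet differences of the 4 genes was not tested.

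The HFD minus CD differences of single strains are given as a description, since with 1 array per diet a difference between strains cannot be told apart from the spread between arrays. For Bdh1 the HFD minus CD difference ran from -1.352 units in BXD56, with BXD97 (-0.892) and BXD84 (-0.837) next, to 0.938 in BXD66 and 0.940 in BXD44, with BXD81 at 0.810. For Slc16a1 it ran from -0.559 in BXD56, followed by BXD97 (-0.251) and BXD73 (-0.227), to 0.596 in BXD69, followed by BXD44 (0.571) and BXD66 (0.511). BXD56 therefore had the most negative difference for both genes, and BXD44 and BXD66 were among the 3 most positive for both.

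For Acat1 the range was narrower, from -0.200 units in BXD98, -0.150 in BXD56 and -0.108 in BXD73 to 0.455 in BXD44, 0.424 in BXD66 and 0.395 in BXD87. Oxct1 gave another order, with the most negative differences in BXD73 (-0.611), BXD44 (-0.452) and BXD84 (-0.446) and the most positive in BXD98 (0.302), BXD87 (0.137) and BXD61 (0.098). In BXD44 the other 3 genes were all higher on HFD while Oxct1 was lower, and in BXD98 the other 3 were all lower while Oxct1 was higher. Acat1 was higher and Oxct1 lower in 25 of 37 strains, and the Acat1 difference exceeded that of Oxct1 in 35. Bdh1, Acat1 and Slc16a1 were all higher in 17 strains and all lower in 6, and Bdh1 and Slc16a1 had the same sign in 29.

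**Figure D2:**
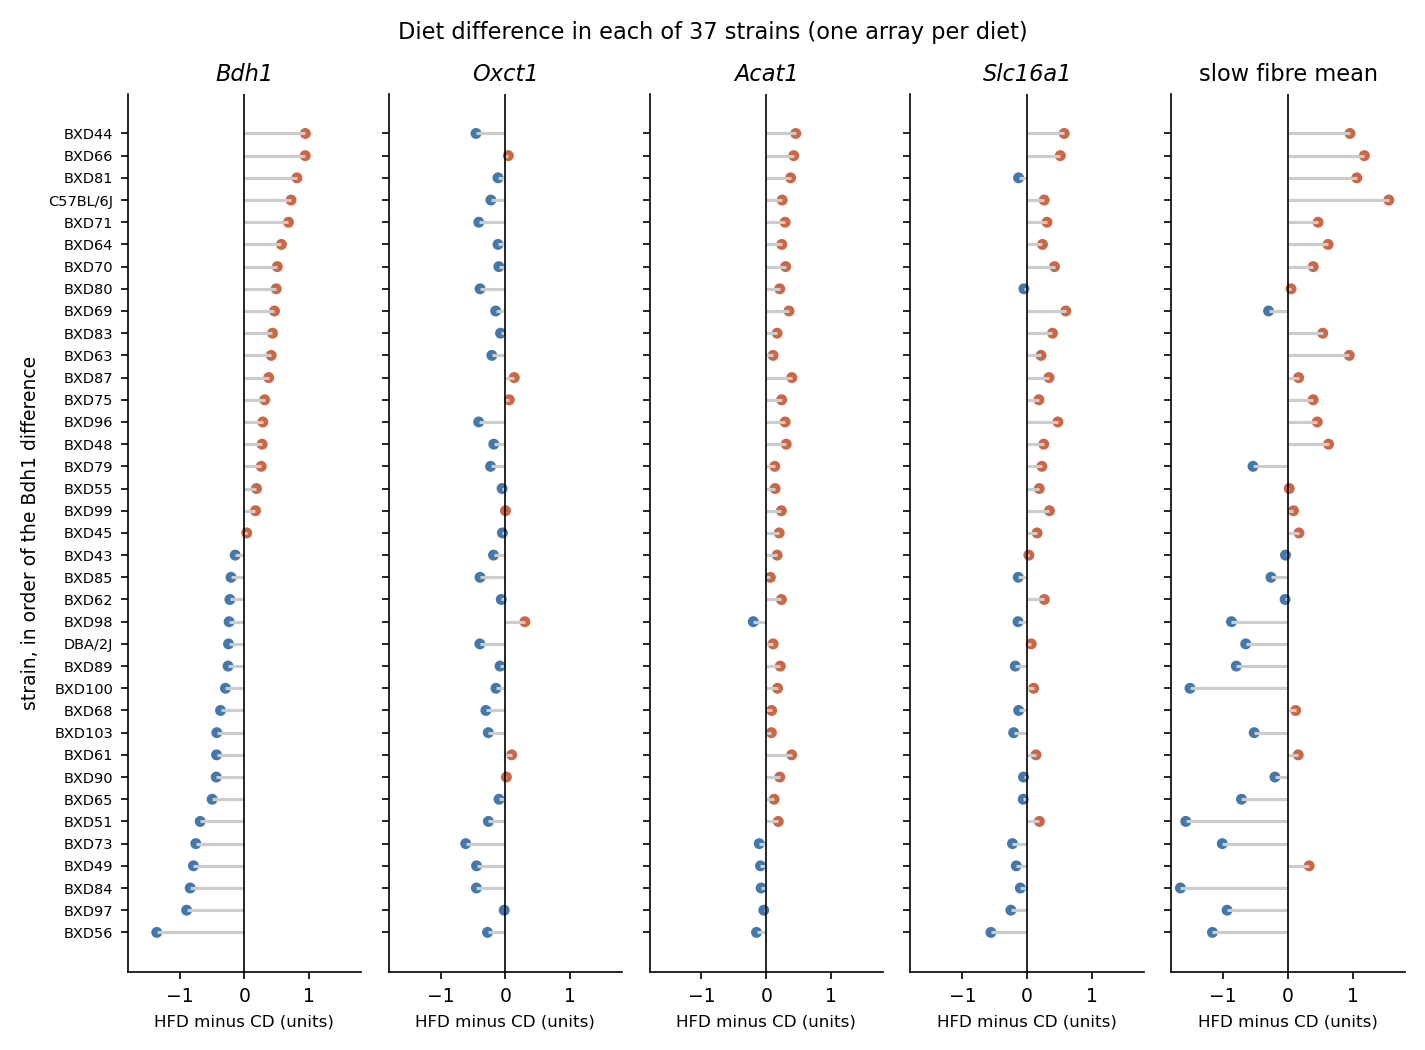
HFD minus CD difference (units) of each gene, and of the mean of 10 slow fibre genes, in each of 37 strains, in order of the Bdh1 difference; orange points are above 0 and blue points below. Acat1 lies above 0 in 31 strains and Oxct1 below 0 in 30, while Bdh1 and the slow fibre mean run from clearly negative to clearly positive strains.

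Across strains on CD, the range from lowest to highest was a nominal 3.29-fold for Bdh1, 1.99-fold for Slc16a1, 1.67-fold for Oxct1 and 1.57-fold for Acat1. On HFD it was 3.68-fold, 1.89-fold, 1.59-fold and 1.51-fold in the same order of genes. The SD of Slc16a1 exceeded that of 78.4% of probesets in CD and 64.8% in HFD, that of Oxct1 52.8% and 32.7%, and that of Acat1 38.99% and 26.6%. Bdh1 was thus the most variable of the 4 genes by this measure on both diets, and Acat1 the least. A range rests on 2 arrays and was not tested.

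The lowest Bdh1 scores on CD were in BXD70 (8.775), BXD66 (8.801) and BXD75 (8.804), and the highest in BXD97 (10.495), DBA/2J (10.425) and BXD84 (10.416). On HFD the lowest were in BXD62 (8.608), BXD56 (8.724) and BXD73 (8.739), and the highest in BXD44 (10.487), BXD71 (10.434) and DBA/2J (10.180). DBA/2J was among the 3 highest strains on both diets. With 1 array each and no measure of the spread within a strain, neighbours in this order cannot be told apart.

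For Slc16a1 the lowest strains on CD were BXD75 (9.686), BXD55 (9.762) and BXD62 (9.767), and the highest BXD56 (10.678), BXD97 (10.667) and BXD84 (10.543). On HFD they were BXD75 (9.868), BXD55 (9.949) and BXD43 (9.953) at the low end and BXD69 (10.789), BXD44 (10.532) and BXD99 (10.510) at the high end. BXD75 and BXD55 were lowest on both diets. BXD97 and BXD84 were at the high end of both Bdh1 and Slc16a1 on CD.

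For Acat1 the low end on CD held BXD70 (12.213), BXD101 (12.224) and BXD43 (12.235), and the high end BXD97 (12.865), BXD98 (12.698) and BXD85 (12.658). On HFD the low end held BXD56 (12.354), BXD55 (12.398) and BXD43 (12.403), and the high end BXD69 (12.953), BXD71 (12.921) and BXD44 (12.874). BXD43 was low on both diets, and BXD97 again led on CD.

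For Oxct1 the low end on CD held BXD98 (10.955), BXD90 (11.078) and BXD62 (11.092), and the high end BXD71 (11.695), BXD85 (11.655) and BXD80 (11.655). On HFD the low end held BXD49 (10.935), BXD96 (10.982) and BXD73 (10.991), and the high end BXD97 (11.601), BXD61 (11.559) and BXD45 (11.451). No strain was at the same end on both diets for Oxct1.

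Cross-diet correlation, over the strains with both arrays (n = 37) and with the batch mean removed within each diet, gave 4 relations on whether a strain kept its position. Adjusted over all probesets, 0 of the 4 genes passed, although 10.5% of probesets passed with a positive r, and 2 of the 4 had an unadjusted permutation p below 0.05. For Acat1, the mitochondrial thiolase, r was 0.400 (permutation p 0.0136, adjusted p 0.0988) and rho was 0.362 (permutation p 0.028). With BXD97 and BXD70, the 2 most distant strains on CD, left out, r was 0.317 (permutation p 0.0632), so the unadjusted relation rests in part on them. For Slc16a1 r was 0.366 (permutation p 0.0263, adjusted p 0.145) and rho 0.339 (permutation p 0.042), and r was 0.414 without its 2 farthest strains.

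Bdh1 gave r 0.284 (permutation p 0.0885, adjusted p 0.311) and rho 0.257 (permutation p 0.126), with r 0.3002 without its 2 farthest strains. Oxct1 gave r 0.278 (permutation p 0.0971, adjusted p 0.324) and rho 0.344 (permutation p 0.038), with r 0.282 without 2. All were above the median r of 0.14 over all probesets, which is a description of these arrays.

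Within batches the cross-diet r kept its sign in all 4 genes. In the 12 strains run wholly in batch 1 it was 0.354 for Bdh1, 0.285 for Oxct1, 0.584 for Acat1 and 0.422 for Slc16a1. In the 17 run wholly in batch 2 it was 0.128, 0.313, 0.406 and 0.387 in the same order. In the 8 split between batches it was 0.567, 0.226, 0.176 and 0.251. For none of the genes did the strains fall into separate clusters, and leaving out BXD63 moved each r by less than 0.01.

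Bdh1, Acat1 and Slc16a1 varied together across all strains on CD, 2 of their 3 pairs also passed on HFD, and no pair with Oxct1 passed on either diet. In batch 1 alone, which holds 18 CD and 17 HFD strains, 0 pairs passed on either diet, and the adjusted p of the 3 CD pairs lay between 0.774 and 0.990. Correlations between the 4 genes were computed over the 42 CD and the 37 HFD strains, 12 relations in all, and adjusted over all other probesets. On CD, 3 of 6 pairs passed, and these were the 3 pairs among Bdh1, Acat1 and Slc16a1. In the same test 1.08% of probesets passed with Bdh1 and 1.46% with Acat1.

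On CD, Bdh1 and Slc16a1 correlated at r 0.694 and rho 0.732 (permutation p 1e-05 for each, the smallest that the draws allow, adjusted p 0.000223). Without the 2 strains farthest from the Bdh1 median r was 0.656, and within batches it was 0.482 and 0.777. Acat1 and Slc16a1 gave r 0.645 and rho 0.637 (permutation p 1e-05 and 2e-05, adjusted p 0.00137), with 0.569 without 2 strains and 0.549 and 0.682 within batches. Bdh1 and Acat1 gave r 0.633 and rho 0.604 (permutation p 2e-05 and 4e-05, adjusted p 0.00232) and 0.576 without 2 strains. This pair was uneven, with r 0.248 in batch 1 and 0.802 in batch 2, a difference that was not tested.

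On HFD, 2 of 6 pairs passed. Acat1 and Slc16a1 gave r 0.651 and rho 0.602 (permutation p 3e-05 and 9e-05, adjusted p 0.00918), and r was 0.347 in batch 1 and 0.811 in batch 2. Bdh1 and Slc16a1 gave r 0.605 and rho 0.602 (permutation p 5e-05 and 8e-05, adjusted p 0.0280), with 0.445 and 0.733 within batches, and it did not pass in batch 2 alone (adjusted p 0.0841). Bdh1 and Acat1 gave r 0.546 and rho 0.497 (permutation p 0.00049 and 0.00195), which missed the threshold (adjusted p 0.0898), with 0.193 and 0.787 within batches, and it passed in batch 2 alone (adjusted p 0.0360). Without the 2 farthest strains the first pair gave 0.584 and the second 0.581, and neither then passed (adjusted p 0.126 and 0.0856). On HFD 0.343% of probesets passed with Bdh1 and 0.391% with Acat1.

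No pair with Oxct1 was among these calls. With Oxct1, 0% of probesets passed on CD and 0% on HFD in the t distribution of r, and 2423 and 1619 had an unadjusted p below 0.05. On CD its r was 0.257 with Bdh1 (permutation p 0.0995), 0.272 with Acat1 (permutation p 0.0822) and 0.359 with Slc16a1 (permutation p 0.0195). Without the 2 strains farthest from the Oxct1 median, r was 0.526 with Acat1 (adjusted p 0.138) and 0.470 with Slc16a1 (adjusted p 0.249), nearer to the r of the pairs that passed, and without the 2 farthest from the Bdh1 median it was 0.260 with Bdh1. That the Oxct1 pairs differ from the others was not tested. On HFD these were 0.144 (permutation p 0.398), 0.218 (permutation p 0.194) and 0.215 (permutation p 0.199). Over all strains the adjusted p was at least 0.632 in all 6. In batch 1 its r with Bdh1 was below 0 on both diets (-0.275 and -0.191), while in batch 2 it was 0.505 and 0.506.

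Slow fibre genes varied with 3 of the 4 members across CD strains, and past the threshold with Bdh1 alone across HFD strains. The slow fibre mean was taken over 10 genes of slow muscle fibres, which are rich in mitochondria: Myh7, Tnnc1, Tnni1, Tnnt1, Myl2, Myl3, Tpm3, Atp2a2, Myoz2 and Casq2. Its correlation, and those of the adipocyte and red blood cell means, with each member on each diet made 24 relations, adjusted over all probesets. On CD the slow fibre mean correlated with Bdh1 at r 0.802 (permutation p 1e-05, the smallest possible, adjusted p 3.38e-07), with Acat1 at 0.627 (permutation p 3e-05, adjusted p 0.00268) and with Slc16a1 at 0.572 (permutation p 0.00011, adjusted p 0.0130). With Oxct1 r was 0.270 (permutation p 0.0839, adjusted p 0.575). In this test 0.976% of all probesets passed on CD, and 3 of the 4 genes did.

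The rank correlations on CD were 0.803 for Bdh1, 0.639 for Acat1, 0.593 for Slc16a1 and 0.366 for Oxct1 (permutation p 1e-05, 2e-05, 5e-05 and 0.0174). Without the 2 strains farthest from the slow fibre median r was 0.782, 0.585, 0.531 and 0.246. Within batch 1 and batch 2 r was 0.715 and 0.839 for Bdh1, 0.452 and 0.694 for Acat1, 0.477 and 0.603 for Slc16a1, and -0.031 and 0.395 for Oxct1. Bdh1 followed the slow fibre mean closely in both batches.

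On HFD the slow fibre mean correlated with Bdh1 at r 0.731 (permutation p 1e-05, adjusted p 0.00081), where 0.0816% of probesets passed. The other 3 did not pass: Acat1 gave r 0.463 (permutation p 0.00419, adjusted p 0.486), Slc16a1 0.361 (permutation p 0.0279, adjusted p 0.814) and Oxct1 0.082 (permutation p 0.63, adjusted p 1). The rank correlations were 0.696, 0.396, 0.361 and 0.159 (permutation p 1e-05, 0.0162, 0.0288 and 0.346). Without 2 strains r was 0.651 for Bdh1, 0.315 for Acat1, 0.287 for Slc16a1 and 0.164 for Oxct1. For Bdh1 r was 0.779 and 0.684 within batches. It was 0.271 and 0.622 for Acat1, 0.197 and 0.507 for Slc16a1, and -0.120 and 0.323 for Oxct1. Whether the correlations differed between diets was not tested.

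The adipocyte mean, although it moved with diet, gave r between -0.082 and 0.176 with the 4 genes on either diet. The red blood cell mean gave r between -0.141 and 0.244. Among these 16 relations the smallest permutation p was 0.144 for r and 0.0595 for rho, the latter for Bdh1 and the red blood cell mean on CD (rho 0.294).

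**Figure D3:**
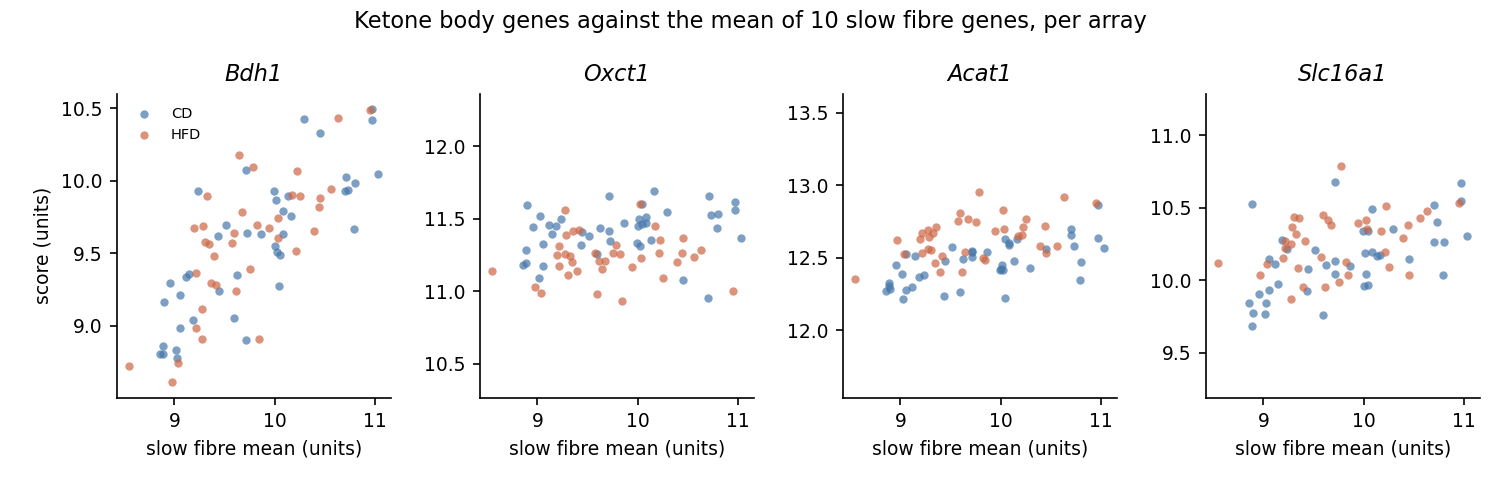
Score of each gene (units) against the mean score of 10 slow fibre genes (units) on the same array, blue for CD and orange for HFD; each panel spans the same number of units on the vertical axis. Bdh1 climbs with the slow fibre mean on both diets. Genes of small SD look flat on this span, so the slope does not show r (on CD 0.627 for Acat1 and 0.270 for Oxct1).

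The difference between diets within a strain varied with that of the slow fibre mean for Bdh1 and Acat1. This comparison was chosen after the data were seen, and both sides come from the same pair of arrays. Over 37 strains the diet difference of Bdh1 correlated with that of the slow fibre mean at r 0.788 and rho 0.794 (permutation p 1e-05 for each, adjusted p 1.93e-05). Acat1 gave r 0.606 and rho 0.635 (permutation p 0.0001 and 5e-05, adjusted p 0.0291). Slc16a1 gave 0.534 and 0.577 (permutation p 0.00067 and 0.00017), which did not pass over all probesets (adjusted p 0.155), and Oxct1 gave 0.107 and 0.093 (permutation p 0.526 and 0.579). In this comparison 0.284% of probesets passed.

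Without the 2 strains farthest from the median of the slow fibre difference r was 0.762, 0.610, 0.578 and 0.0013 in the same order of genes. In the 29 strains run within 1 batch r was 0.799, 0.630, 0.564 and -0.062, and in the other 8 it was 0.777, 0.547, 0.631 and 0.608. In BXD56, where the Bdh1 difference was most negative, the slow fibre mean went from 9.72 on CD to 8.55 on HFD. In BXD44, where it was most positive, the mean went from 9.998 to 10.95. A larger share of slow fibres and more slow fibre RNA per fibre cannot be told apart in these pools, and the part of fibre make-up in the diet differences was not tested.

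The genes whose pattern was most like that of each member were named over all 79 arrays after the mean of each diet and batch was removed. These are descriptions, with no test. For Bdh1 they were Ckmt2 (r 0.798), the mitochondrial creatine kinase of striated muscle, Ldhb (0.793), the lactate dehydrogenase subunit of oxidative tissue, Myom3 (0.778), Atp2a2 (0.775), the slow-twitch calcium pump that is also in the slow fibre list, and Actn2 (0.769).

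For Acat1 they were Hsdl2 (0.827), Etfdh (0.817), Hadhb (0.814), Ephx2 (0.807) and Cpt2 (0.791). HADHB is a subunit of the mitochondrial trifunctional protein of fatty acid oxidation, CPT2 brings fatty acids into the matrix as CoA esters, and ETFDH passes their electrons to the respiratory chain. For Slc16a1 they were Slc25a5 (0.785), an ATP and ADP exchanger of mitochondria, Nceh1 (0.758), Dlst (0.755), a subunit of the 2-oxoglutarate dehydrogenase complex, Hsdl2 (0.748) and Tm6sf1 (0.730). Hsdl2 was thus in the lists of both Acat1 and Slc16a1.

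For Oxct1 the values were lower: Ppm1k (0.552), Taco1 (0.537), Mccc2 (0.495), Oxnad1 (0.490) and Dbt (0.486). DBT is a subunit of the branched-chain ketoacid dehydrogenase, PPM1K is the phosphatase that acts on that complex, and MCCC2 belongs to leucine breakdown. Ppm1k was, like Oxct1, called lower in HFD (-0.18 units, SE 0.0487, limma adjusted p 0.00200), whereas Taco1, Mccc2 and Oxnad1 were called higher (0.09, 0.07 and 0.14 units).

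C57BL/6J and DBA/2J, whose alleles the BXD strains inherit, were each measured on 1 array per diet. For Bdh1, C57BL/6J scored 9.162 on CD and 9.881 on HFD, and DBA/2J scored 10.425 and 10.180. For Slc16a1, C57BL/6J scored 9.773 and 10.035, and DBA/2J 10.354 and 10.417. C57BL/6J was thus lower than DBA/2J on both diets for both genes.

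In a limma fit over the paired strains that contrasts C57BL/6J with DBA/2J, 1.26% of probesets were called, and 0 of the 4 genes. The difference for Bdh1 was -0.78 units (SE 0.392, p 0.0533, adjusted p 0.616), and for Slc16a1 -0.48 units (SE 0.186, p 0.0135, adjusted p 0.330), the only 1 of the 4 with an unadjusted p below 0.05. For Acat1 it was -0.07 units (adjusted p 0.985) and for Oxct1 0.13 units (adjusted p 0.961). With 2 arrays per parent, these intervals are wide, and that of Bdh1 ran from -1.57 to 0.01 units.

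Around the 4 genes, 26 others in 5 lists of ketone body production, further ketone body enzymes, carriers, lactate and pyruvate partners, and regulators were called 2 higher and 6 lower in HFD, with 18 not called (limma). The balance of directions turned with the scaling, since with arrays centred on their median 5 were called higher and 3 lower. With dim probesets left out, 1 was called higher and 3 lower. The share called is below the 38.1% of all probesets, so these counts describe the lists and set none of them apart. Their median difference was 0.0061 units, beside -0.00066 over all probesets. Of the 3 genes of ketone body production, which is chiefly a liver pathway, limma called 0, and 2 had an unadjusted p below 0.05. Among these Hmgcll1 differed by -0.08 units (adjusted p 0.0675).

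Of the 6 further enzymes, 3 were called, all lower. Acat3, a cytosolic thiolase, fell by 0.34 units (SE 0.0447, limma adjusted p 1.37e-09), and only 5 of 37 strains had a higher HFD score. Oxct2b, a testis form of the transferase, fell by 0.14 units (adjusted p 0.00219), and Bdh2, a cytosolic dehydrogenase, by 0.07 units (adjusted p 0.0435), a call lost with strain as a replicate block (-0.06 units, adjusted p 0.0958). Acat3 (means of 7.02 in CD and 6.67 in HFD) and Bdh2 (7.72 and 7.65) were dim, beside a median of 7.865 over all single values. Acat3 and Acat2, and Oxct2a and Oxct2b, are near-identical copies, so the assignment of their probesets is uncertain. RefSeq lists Oxct2a among the older names of Oxct1, but the files give them separate probesets.

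Of the 7 other carrier genes 2 were called higher and 2 lower. Slc16a6 rose by 0.23 units (SE 0.0322, limma adjusted p 1.17e-08), as seen in 33 of 37 strains, and Slc16a7, or MCT2, rose by 0.18 units (adjusted p 0.00461) in 28 strains. Slc16a3, or MCT4, the lactate exporter of glycolytic fibres, fell by 0.11 units (adjusted p 0.0320), and Slc5a8, a sodium-coupled carrier, by 0.11 units (adjusted p 0.00480). Slc16a7 (means of 7.31 in CD and 7.49 in HFD) and Slc5a8 (6.99 and 6.88) were also dim, below the median of 7.865 over all single values. Basigin (Bsg), the partner of SLC16A1, differed by -0.03 units (adjusted p 0.350).

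Among the lactate and pyruvate partners 1 of 4 was called: Mpc1, a subunit of the mitochondrial pyruvate carrier, fell by 0.07 units (limma adjusted p 0.0409). Of the 6 regulators and receptors, among them Ppara, Ppargc1a and Fgf21, limma called 0, and Fgf21 alone had an unadjusted p below 0.05 (0.08 units, adjusted p 0.0596). With strain as a replicate block Fgf21 passed (0.09 units, limma adjusted p 0.0361).

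The citric acid cycle, into which acetyl-CoA from ketone bodies flows, was called higher in 11 of 16 genes and lower in 0 (68.8%, beside 18.9% of all probesets called higher), with a median difference of 0.067 units. Among the subunits of succinyl-CoA ligase, Suclg1 rose by 0.13 units (SE 0.0280, limma adjusted p 8.02e-05), Sucla2 by 0.11 (adjusted p 0.00110) and Suclg2 by 0.10 units (adjusted p 0.0260). Sdhd rose by 0.10, Sdhc by 0.09, Mdh2 by 0.09, Ogdh by 0.08, Dlst and Fh1 by 0.07, and Idh3b by 0.05 units. With strain as a replicate block the same 11 were called, and Idh3a (0.06 units, limma adjusted p 0.00548) and Sdhb (0.09 units, adjusted p 0.0222) passed as well. In units, all 11 differences were smaller than those of Oxct1 and Acat1. Scores of different probesets are not compared here, so this does not rank the changes.

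**Figure D4:**
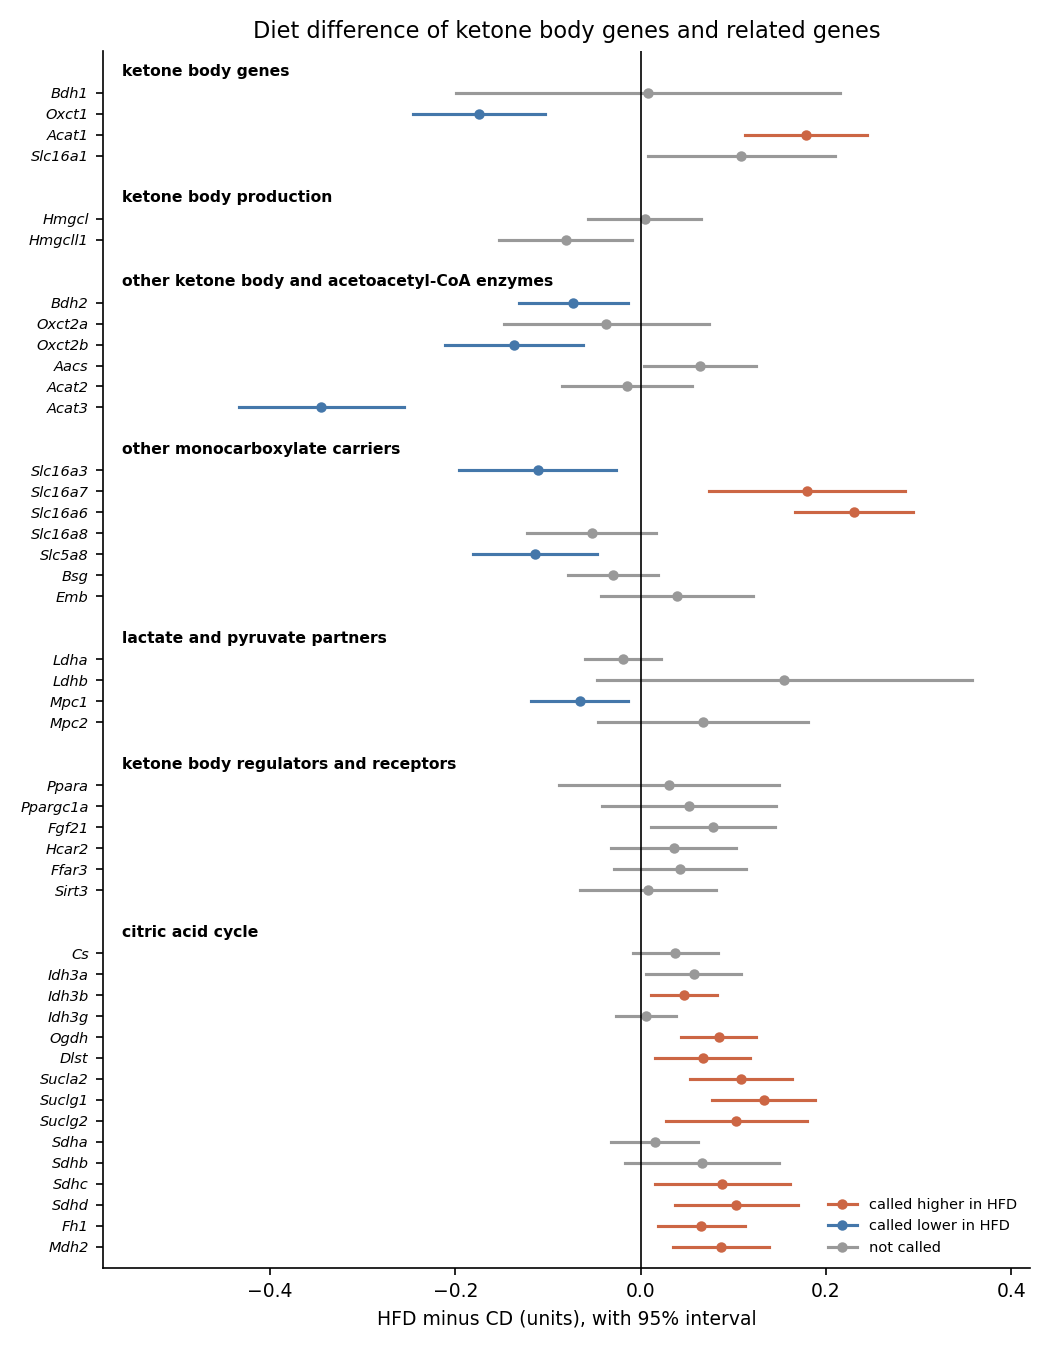
HFD minus CD difference (units) with its 95% interval from the limma fit for the 4 ketone body genes and genes of 6 related lists, in orange where called higher, blue where called lower and grey where not called. Oxct1 and Acat1 lie on opposite sides of 0, and the 10 citric acid cycle genes drawn in orange lie above it.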

How the data were processed

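Total RNA of quadriceps cohorts was hybridized to 79 arrays. The authors deposited a table with a score per probeset, named by the submitters' processing notes as made with Affymetrix Expression Console, scaled to a common mean of 8 and SD of 2 on each array. The log base, summarization, background method and any batch correction were not given in the sources used here. The unit differed from the log2 values the tests had been planned for, and the same linear models were run. The number of arrays limits precision, as arrays have no counting depth. All value columns were used, and column BXD92 was matched to the sample titled BXD92a.

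The deposited scores of 35556 probesets were fitted in limma 3.58.1 (R 4.3.3) with diet and batch as terms, and Benjamini-Hochberg adjusted p-values below 0.05 were called. The parental contrast used 1 coefficient per strain with diet and batch. Correlations used scores with the batch mean removed within each diet, two-sided permutation tests of 100000 draws, and adjusted p-values from the t distribution of r over all probesets (Python 3.11.15, scipy 1.17.1). The diet differences per strain were not batch centred. Strains counted as separate clusters where a mixture of 2 normals lowered the BIC by at least 10 with an Ashman's D over 2. The limma step was tested on simulated data.

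A gene was its probeset with the highest mean. The members and lists were chosen with earlier results of these data known. The text names the 4 genes, the called genes of the pathway lists and the rest mostly by counts, the 5 genes most like each member, and the 3 strains at each end. Hmgcll1, Fgf21, Bsg, Ppara and Ppargc1a were named although not called, and were added after their values were seen. Idh3a, Sdhb, Acat2 and Oxct2a were also named although the main fit did not call them. Lists held 111 genes, of which 110 were found, 4 by another symbol. Of the pathway genes, 2 count in the totals, and their own values are not reported here.

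The labels name the strain of each array and so give the pairs. Deviations about the diet mean correlated at a median of 0.214 (-0.136 to 0.395) between arrays of the same strain, over 0.1 in 33 of 37, and at a median of -0.0062 between different strains.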

Additional observations from a re-analysis of the deposited data

How the results depend on the processing

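Over 13 alternative fits Oxct1 stayed lower and Acat1 higher in HFD, past the threshold in each. Slc16a1 kept its sign and passed in 2: with strain as a replicate block (0.106 units) and with arrays centred on their median (0.126 units). Bdh1 was not called in any, and its sign turned with the replicate block (-0.0029 units), in the unpaired fit of the paired strains (-0.0053), in batch 2 alone (-0.0313), after quantile normalizing again (-0.0086), in BXD strains only (-0.0058) and without BXD63 (-0.0027). The block changed no other call among the 4 genes. Of the 26 related genes, 2 higher and 6 lower became 3 and 5 with the replicate block, which lost Bdh2 and gained Fgf21, 1 and 1 in batch 1 alone, 5 and 3 with median centring, and 1 and 3 without dim probesets, and 3 were lower in batch 2 alone. In batch 1 alone 0 pairs of members passed on either diet, and 0 passed on HFD without the 2 farthest strains. In batch 2 alone 2 pairs passed on HFD, with Bdh1 and Acat1 in place of Bdh1 and Slc16a1. These settings use fewer arrays, and batch 1 holds 18 CD and 17 HFD strains. In batch 1 the sign of r turned for Bdh1 and Oxct1 (-0.275 on CD and -0.191 on HFD), Oxct1 and Acat1 on HFD (-0.118) and Oxct1 and Slc16a1 on HFD (-0.0393). The cause was not tested. Cross-diet correlations kept their sign in all 40 alternatives, and parental differences in all 16. None of these was called in any setting, and the smaller sets of arrays could hardly pass adjustment over all probesets, so this says nothing of their stability. From the 10th to the 90th percentile, strain ranges narrowed by more than the SD in all 8. Such a span lies within the full range by construction, so the narrowing says nothing of their stability. Without BXD63, added after the data were seen, no pair changed its call.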
